A study of Mus musculus with 14 samples.

Results

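The genes described here mark the epithelium of the mesonephric (Wolffian) duct and of the mesonephric tubules, the embryonic kidney tissue that lies against the fetal ovary. The 8 genes named by the rule were Pax2, Pax8, Gata3, Lhx1, Emx2, Cdh16, Epcam and Cdh1, and every probe set whose single gene symbol in the platform annotation was one of them was taken. This gave 10 probe sets for 7 genes, of 45037 probe sets other than controls and 18193 genes with a probe set. Pax2 had none listed and was not analysed here. Expression had been measured in ovaries of mouse embryos on 14 Affymetrix arrays, as probe set intensities made with MAS5 and scaled to the same trimmed mean of 500 on every array. The groups were 3 control and 3 knockout ovary samples on embryonic day (E) E14.5 and 4 control with 4 knockout samples on E16.5, on a mixed background of B6129SF1/J, Swiss Webster and C57BL/6. The knockouts were designed to lose Coup-tfII (Nr2f2), which codes for a nuclear receptor, through WT1-CreERT2, a recombinase that tamoxifen activates in cells with Wt1 promoter activity and that acts on the floxed alleles. The dams of all groups had received tamoxifen on E11.5 and on E12.5, at 2 mg for each 10 g of their weight. The labels do not say whether controls carried Cre or whether ovaries were pooled. Wt1 is active in the coelomic epithelium, in gonadal somatic cells and in nephrogenic tissue, so deletion in these data was not limited to 1 cell type by design.

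The mesonephric duct arises from intermediate mesoderm and induces tubules in the tissue beside it. In male embryos the duct becomes the epididymis and vas deferens, and in female embryos most of it regresses while the Müllerian duct persists. Pax2 and Pax8 are paired-box transcription factors that specify the nephric lineage, Gata3 and Lhx1 act downstream of them in the duct, and Emx2 is a homeobox factor of the whole urogenital ridge. Cdh16 (kidney-specific cadherin), Cdh1 (E-cadherin) and Epcam are adhesion proteins of epithelial cells. None of these genes is unique to the duct: Cdh1 and Epcam are also made by germ cells and other epithelia, Emx2 by the gonad, and Pax8 and Lhx1 by Müllerian epithelium. In whole ovaries, fewer cells of a type and less RNA per cell cannot be told apart.

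The targeted gene and the arrays were looked at first. Nr2f2, by its brightest probe set, read 4332 ± 467 (SD, n = 4) in E16.5 controls and 2534 ± 575 (SD, n = 4) in E16.5 knockouts, without overlap. Of its 6 probe sets, 5 had all E16.5 knockouts below all controls, and their losses differed in size: 1416159_at went from 1974 ± 185 (SD, n = 4) to 321 ± 60.6 (SD, n = 4) and 1416160_at from 974 ± 72.4 (SD, n = 4) to 329 ± 138 (SD, n = 4). By the brightest set the E14.5 controls read 377 ± 143 (SD, n = 3) and the E14.5 knockouts 225 ± 60.9 (SD, n = 3), with overlap, and 1 of the 6 sets had all E14.5 knockouts below all controls. Which of these sets lie in the deleted part of the gene was not tested. Median signals ran from 90.3 to 102.5 on E14.5 arrays and from 118 to 137 on E16.5 arrays. A bioB hybridization control read 1041 to 1239 on E14.5 arrays and 3956 to 5365 on E16.5 arrays, except in E16.5 knockout replicates 1 (9664) and 4 (15920). The Gapdh 3' minus 5' difference in log2 signal, a measure of RNA integrity and amplification, was -0.42 to -0.06 at E14.5, 1.67 to 1.83 in E16.5 controls and 0.94 to 1.63 in E16.5 knockouts. These array measures and the stage cannot be told apart, and at E16.5 the Gapdh difference also separated the groups.

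Changes below are log2 changes of signal + 16 with their standard error, from 1 limma model of all 14 arrays. The model tested 12406 genes, each by its brightest probe set, with a mean of log2(signal + 16) over all arrays above the 40th percentile (a signal of about 62.0). Adjusted p-values are by Benjamini-Hochberg over these genes, with a threshold of 0.05. Of the 10 member probe sets, 7 lay above that level. Both Lhx1 probe sets and the dimmer of both Pax8 probe sets lay below it, so 6 of the 7 measured genes were tested. Cdh16 passed the filter through its knockouts: its mean over all arrays came to a signal of 64.4, with group means of 44.8 and 46.3 in controls and 122 and 88.3 in knockouts at E14.5 and E16.5. Counts and medians over the tested members, and the duct score used further on, therefore depend in part on the changes they describe.

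**Figure D1:**
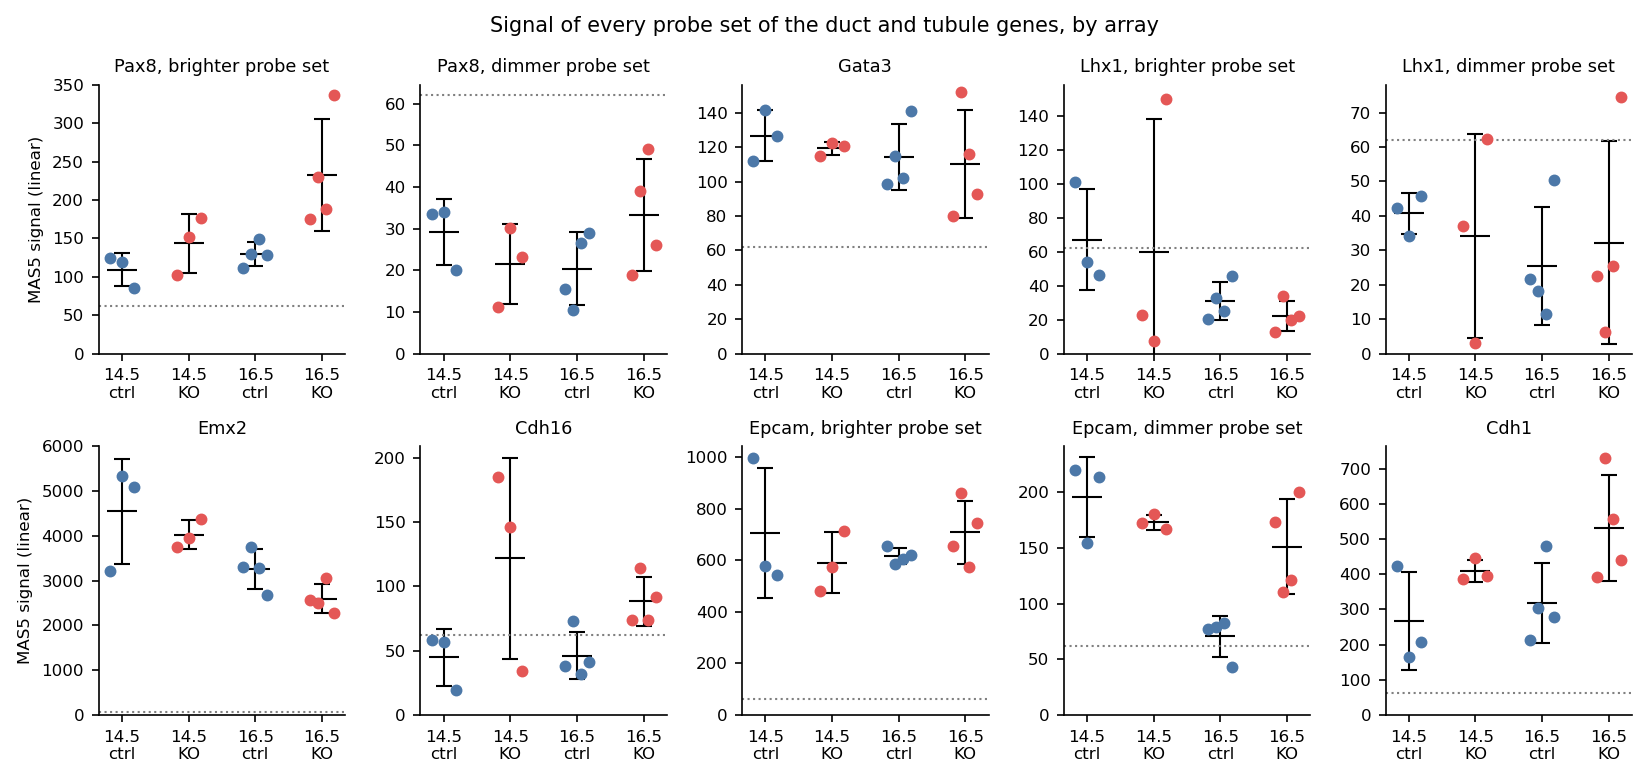
MAS5 signal (linear axis from 0) of the 10 probe sets in the 14 arrays. Blue points are control arrays, red points knockout arrays (KO), the horizontal bars the group means and the whiskers 1 SD, cut off at 0 where they would run below it. The dotted line is the signal of 62.0 used as the filter. At E16.5 the red points lie above all blue points for the brighter Pax8, the Cdh16 and the dimmer Epcam probe sets.

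Pax8, which acts with Pax2 to set up the nephric duct, had the smallest p of the tested members at E16.5. Its brighter probe set (1418208_at) read 111, 130, 149 and 128 in the E16.5 controls and 176, 230.3, 188 and 337 in the knockouts. All 4 knockout arrays lay above all 4 controls, and knockout replicate 4 stood well above the others. The log2 change was 0.74 ± 0.22 (1.67-fold), which did not pass (limma adjusted p = 0.0933). It missed the threshold of 0.05 in each alternative fit as well, with limma adjusted p from 0.0793 to 0.63. Without E16.5 knockout replicates 1 and 4, both with high bioB signals, the log2 change was 0.63. At E14.5 the signals were 124, 119 and 85.2 in controls and 102, 152 and 177 in knockouts, which overlapped, with a log2 change of 0.33 ± 0.25 (limma adjusted p = 0.745). The dimmer probe set (1446561_at) read 10.5 to 34.0 in controls and 11.3 to 49.1 in knockouts over both stages, with overlap at each stage.

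Cdh16, a cadherin found mainly in kidney tubule and duct epithelium, was near the filter level. At E14.5 its probe set (1448906_at) read 58.3, 56.6 and 19.4 in controls and 185, 146 and 34.4 in knockouts. Knockout replicates 1 and 2 were above every control while replicate 3 was within the range of the controls. The log2 change of 1.04 ± 0.44 (2.05-fold) did not pass (limma adjusted p = 0.516). Without knockout replicate 3 it was 1.65 ± 0.36 and passed (limma adjusted p = 0.0329), and the count of all genes past the threshold went from 5 to 179. At E16.5 the signals were 38.2, 73.5, 32.2 and 41.2 in controls and 73.7, 114, 73.7 and 91.6 in knockouts. The groups did not overlap, but the lowest knockout and the highest control were nearly equal. The log2 change of 0.77 ± 0.38 (1.70-fold) did not pass (limma adjusted p = 0.293).

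Gata3, a zinc-finger factor needed for extension of the nephric duct, showed no separation at either stage. It read 112, 142 and 126 in E14.5 controls and 115, 122 and 121 in E14.5 knockouts. At E16.5 it read 98.8, 115, 102 and 141 in controls and 80.2, 152, 116 and 92.9 in knockouts, where the highest and the lowest array of the stage were both knockouts. The log2 change was -0.07 ± 0.23 at E14.5 (95% interval -0.55 to 0.41, limma adjusted p = 0.961). It was -0.06 ± 0.20 at E16.5 (95% interval -0.48 to 0.35, limma adjusted p = 0.895). Both intervals hold changes in either direction, so the test does not show equal levels.

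Lhx1, a LIM homeobox factor of the duct tip and of nascent tubules, was dim. Its brighter probe set (1450428_at) read 101, 54.1 and 46.2 in E14.5 controls and 23.0, 7.22 and 150.2 in E14.5 knockouts. The highest array and the pair of lowest arrays of the stage were all knockouts, with replicate 3 the high one. At E16.5 all 8 arrays lay between 12.8 and 45.9, and the groups overlapped. The other probe set (1421951_at) read 34.3 to 45.7 in E14.5 controls and 37.2, 3.06 and 62.3 in E14.5 knockouts, again lowest in replicate 2 and highest in replicate 3. In a fit over all probe sets without a filter, neither Lhx1 probe set passed in any comparison.

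Emx2, a homeobox factor without which kidneys, gonads and genital tracts do not form, was bright. It read 3208, 5350 and 5104 in E14.5 controls and 3747, 3957 and 4378 in E14.5 knockouts, and the groups overlapped. At E16.5 it read 3312, 3761, 3294 and 2680 in controls and 2574, 2499, 3055 and 2269 in knockouts. Control replicate 4 and knockout replicate 3 were the arrays that made the E16.5 groups overlap. Neither stage passed: E14.5 gave -0.14 ± 0.17 (limma adjusted p = 0.86) and E16.5 gave -0.32 ± 0.15 (limma adjusted p = 0.259).

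Cdh1, the classical cadherin of epithelial junctions, read 425, 166 and 208 in E14.5 controls and 388, 447 and 394 in knockouts. Control replicate 1 lay within the range of the knockouts and the other controls lay below it. At E16.5 the controls read 213, 304, 479.6 and 279, and the knockouts 392, 731, 557 and 441. Control replicate 3 was above knockout replicates 1 and 4, so these groups also overlapped. The log2 changes were 0.70 ± 0.31 (1.62-fold, limma adjusted p = 0.536) and 0.72 ± 0.27 (1.65-fold, limma adjusted p = 0.164). With a covariate for the Gapdh difference the E16.5 value was 1.28 (limma adjusted p = 0.0967), and without both knockout arrays with high bioB signals it was 1.02 (limma adjusted p = 0.307).

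Epcam, a membrane protein of simple epithelia, was read by a pair of probe sets that did not match each other. The brighter one (1416579_a_at), which stood for the gene, read 996, 577 and 542 in E14.5 controls and 482, 575 and 714 in E14.5 knockouts. At E16.5 it read 656, 586, 605 and 622 in controls and 655, 859, 573 and 744 in knockouts, with overlap, and the log2 change was 0.18 ± 0.18 (limma adjusted p = 0.633). The dimmer one (1447899_x_at) read 77.1, 79.2, 82.7 and 43.0 in E16.5 controls and 173, 111, 121 and 199.9 in E16.5 knockouts. All knockout arrays lay above all controls, with a log2 change of 0.94 ± 0.22 that missed the threshold over all probe sets (limma adjusted p = 0.0725). At E14.5 it read 219.6, 154 and 214 in controls and 172, 180.0 and 167 in knockouts, with overlap. Affymetrix gives the suffix x to sets in which some probes can also bind other sequences, so which of these sets reads Epcam RNA alone was not tested.

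Promoter sequences are shown for Pax8 and Epcam, the members with a promoter entry and a probe set whose E16.5 groups did not overlap. They are the RefSeq windows of GRCm38.p6 from 250 bases before to 50 bases after the annotated start, read 5′ to 3′ on the strand of the gene, at chr2:24475550-24475849 (minus strand) for Pax8 and chr17:87635729-87636028 (plus strand) for Epcam. Capitals mark the E-box CAGGTG or its reverse complement CACCTG, the letters that Snail and Zeb repressors of epithelial genes are known to bind.
Pax8: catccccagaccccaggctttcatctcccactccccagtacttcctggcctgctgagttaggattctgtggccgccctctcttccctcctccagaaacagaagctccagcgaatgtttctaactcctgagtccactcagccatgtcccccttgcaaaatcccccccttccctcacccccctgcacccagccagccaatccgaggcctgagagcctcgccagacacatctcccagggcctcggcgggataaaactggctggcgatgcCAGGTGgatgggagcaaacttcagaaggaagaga
Epcam: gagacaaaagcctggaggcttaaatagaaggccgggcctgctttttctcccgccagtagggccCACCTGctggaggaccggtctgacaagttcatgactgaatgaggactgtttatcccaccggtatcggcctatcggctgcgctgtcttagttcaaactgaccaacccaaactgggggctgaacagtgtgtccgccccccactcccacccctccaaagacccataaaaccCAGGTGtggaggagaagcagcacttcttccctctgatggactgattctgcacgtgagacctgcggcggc
The Pax8 window held 1 match, 17 bases after the start, and the Epcam window held 2, at 187 and 19 bases before it. Of the 8 promoter entries of the members, 3 held the E-box on either strand (Pax8, Epcam and 1 of the 3 Pax2 entries), and so did 20.2% of 32851 promoter windows of that length. The nuclear receptor half-site AGGTCA, or its reverse complement TGACCT, was in 0 of the 8 entries and in 16.3% of all windows. Entries were found for 6 of the 8 genes, and Cdh16 and Cdh1 had none. A match is a description of letters, not a bound site.

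**Figure D2:**
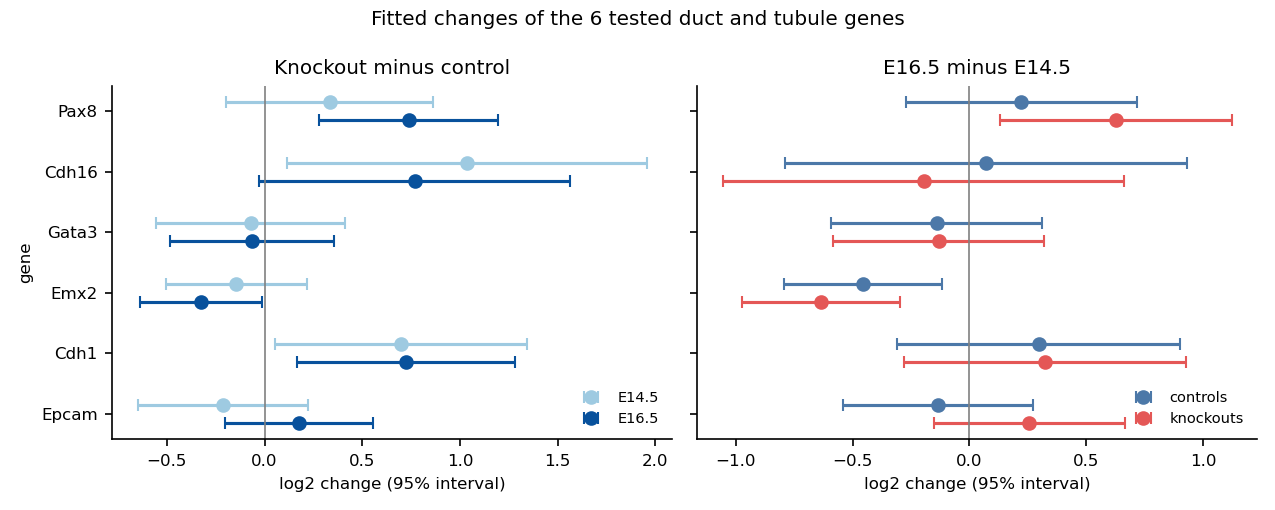
Log2 change of the 6 tested members with 95% intervals from the limma fit, knockout minus control at each stage (left) and E16.5 minus E14.5 in each genotype (right). At E16.5 Pax8 (0.74), Cdh1 (0.72) and Cdh16 (0.77) have the highest knockout estimates and Emx2 (-0.32) the lowest, and none passed after adjustment.

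As a group, 0 of the 6 tested members passed the threshold between knockout and control at E14.5, where 0.0403% of all genes tested did (5 of 12406). At E16.5 the count was again 0 of 6, beside 1.42% of all genes (176 of 12406, of which 120 were higher). Without adjustment, limma p at E14.5 was under 0.05 for 2 of the 6 members (Cdh16 and Cdh1), beside 1061 of all 12406 genes. At E16.5 it was under 0.05 for 3 of the 6 (Pax8, Cdh1 and Emx2), beside 2266 of all 12406 genes. Cdh16 is in these counts through its knockouts. The median log2 change of the 6 members was 0.13 at E14.5 and 0.45 at E16.5, beside medians over all genes tested of 0.03 and 0.05. Without the filter 0 of the 7 measured members passed at either stage, beside 0.0495% of all 18193 genes at E14.5 and 0.737% at E16.5. Their median was then -0.07 at E14.5 and 0.18 at E16.5, beside 0.04 and 0.06 over all genes, so the E14.5 median changed sign with the filter. In the fit over all probe sets, 0 of the 10 member probe sets passed at either stage, beside 0.0333% of all probe sets at E14.5 and 0.473% at E16.5.

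The groups were also compared by whether their arrays overlapped. For 3 of the 10 member probe sets (brighter Pax8, Cdh16 and dimmer Epcam), all E16.5 knockout arrays were above all controls, which held for 3.96% of all probe sets. For 0 of 10 all knockout arrays were below, beside 3.84% of all probe sets. At E14.5 0 of 10 had all knockout arrays above (6.73% of all probe sets) and 0 of 10 below (4.50%). The members share the same arrays, and both Epcam sets differed, so these are descriptions of single probe sets. No member passed the test of a difference in the knockout effect between the stages, where 0% of all genes passed by limma. An unadjusted limma p under 0.05 was found there for 1105 of 12406 genes and for 0 members. The dimmer Epcam probe set had the largest estimate among member probe sets, 1.09 ± 0.34 (limma adjusted p = 0.548 over all probe sets).

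Between the stages, 2 members passed the test in at least 1 genotype, Emx2 and Pax8. Emx2 fell by 0.45 on the log2 scale in controls (SE 0.16, limma adjusted p = 0.0199) and by 0.63 in knockouts (SE 0.16, limma adjusted p = 0.00247), and in knockouts all E16.5 arrays lay below all E14.5 arrays. Pax8 rose by 0.63 ± 0.23 from E14.5 to E16.5 in knockouts (limma adjusted p = 0.0282), while in controls its log2 change was 0.22 ± 0.23 (limma adjusted p = 0.419). The other tested members did not pass, so 1 of 6 members passed in controls and 2 of 6 in knockouts, beside 64.4% and 60.8% of all genes. These stage values depend on the scaling, since the median log2 change of all genes was -0.09 in controls as deposited, -0.21 after quantile normalization and -0.43 after median centring. After quantile normalization neither Emx2 in controls (-0.25, limma adjusted p = 0.168) nor Pax8 in knockouts (0.29, limma adjusted p = 0.299) passed, while Emx2 in knockouts passed in each alternative. The Pax8 call in knockouts was also lost without E14.5 knockout replicate 1 (0.43, limma adjusted p = 0.158) or E16.5 knockout replicate 4 (0.45, limma adjusted p = 0.0979). The Emx2 call in controls was lost without E14.5 control replicate 2 (-0.32, limma adjusted p = 0.126), E14.5 control replicate 3 (-0.35, limma adjusted p = 0.104) or E16.5 control replicate 4 (-0.36, limma adjusted p = 0.066).

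The dimmer Epcam probe set fell by 1.31 on the log2 scale from E14.5 to E16.5 in controls (SE 0.24, limma adjusted p = 0.000145 over all probe sets, of which 52.5% passed). In knockouts its log2 change was -0.21 ± 0.24 (limma adjusted p = 0.487, where 51.0% passed). All E16.5 controls were below all E14.5 controls for this set and for the brighter Lhx1 set, as for 25.8% of all probe sets. Among knockouts Emx2 was the member with all E16.5 arrays below, as were 22.6% of all probe sets.

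Attached mesonephric tissue was described array by array through the duct-defining members above the filter, of which Cdh16 entered through its knockouts and Lhx1 was left out. A duct score was taken as the mean of log2(signal + 16) over Pax8, Gata3 and Cdh16, minus its mean over the arrays of the same stage. At E14.5 the scores were -0.09, -0.01 and -0.55 in controls and 0.32, 0.41 and -0.09 in knockouts. Knockout replicates 1 and 2 were highest, and replicate 3 lay among the controls, but this order rested on which genes were in the score. With Lhx1 added the E14.5 knockouts scored 0.06, -0.06 and 0.27 and the controls 0.15, 0.02 and -0.43, so that replicate 3 was the highest array and control replicate 1 the next. Without Cdh16 the knockouts scored -0.16, 0.13 and 0.23 and the controls -0.06, 0.07 and -0.21. At E16.5 they were -0.41, -0.04, -0.33 and -0.18 in controls and -0.06, 0.51, 0.13 and 0.38 in knockouts. Knockout replicates 2, 3 and 4 were above every control and replicate 1 was just below control replicate 2. The group means were -0.24 ± 0.16 (SD, n = 4) and 0.24 ± 0.26 (SD, n = 4) at E16.5, and the groups overlapped at both stages. With Lhx1 added the E16.5 controls scored -0.36, 0.03, -0.25 and 0.01 and the knockouts -0.18, 0.45, 0.04 and 0.26, and without Cdh16 the controls scored -0.35, -0.16, -0.14 and -0.03 and the knockouts -0.18, 0.40, 0.10 and 0.35. In both versions knockout replicates 2, 3 and 4 lay above every control and replicate 1 among the controls. Without Pax8 the E16.5 order was the same, though knockout replicate 4 (0.1169) was nearly level with control replicate 2 (0.1158). Without Gata3 the E16.5 groups did not overlap, with -0.55 to -0.09 in controls and 0.11 to 0.68 in knockouts. No p is given, because the members were chosen with results known.

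**Figure D3:**
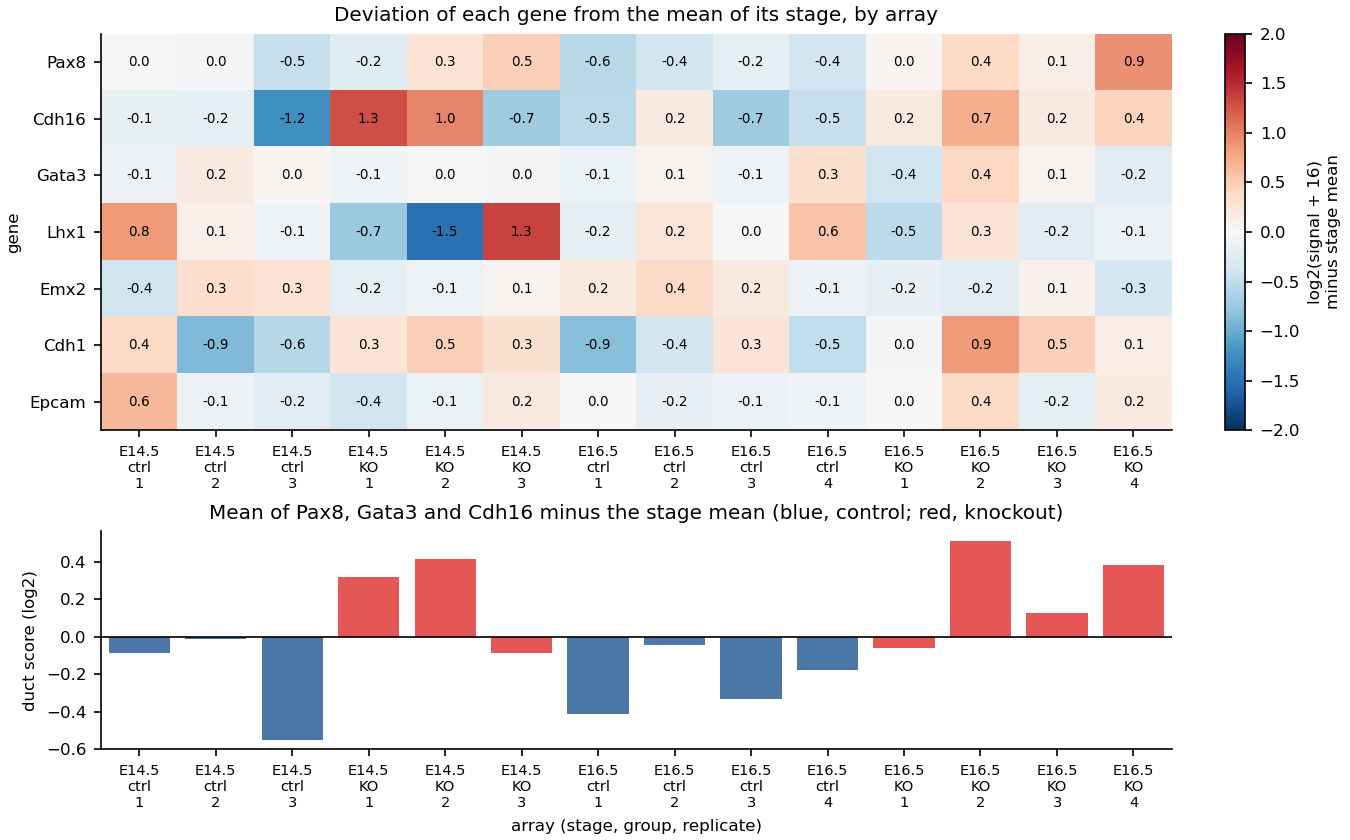
Upper panel, log2(signal + 16) of the 7 measured members (brightest probe set) minus the mean of all arrays of the stage, by array, with red above and blue below that mean. Lower panel, the duct score of each array (control in blue, knockout in red). E16.5 knockout replicate 2 has the highest score (0.51) and E14.5 control replicate 3 the lowest (-0.55), and no array is high for every member.

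Within groups the duct-defining members showed little shared variation from array to array. After the group means were taken out, Pearson's r over the 14 arrays was -0.11 between Pax8 and Cdh16, 0.05 between Pax8 and Gata3 and 0.14 between Cdh16 and Gata3. The highest value among tested members was 0.56, between Epcam and Pax8, and the lowest was -0.64, between Epcam and Emx2. These are descriptions over arrays that share 1 scaling, without a test. E16.5 knockout replicate 2 was the highest array of its stage for 4 of the 7 measured members (Gata3, Cdh16, Cdh1 and Epcam) and among the highest 3 for 6. E14.5 control replicate 3, with the lowest duct score, was the lowest of its stage for 2 of the 7. The residuals of the duct score followed Cdh16 (r = 0.84) more than Gata3 (0.46) or Pax8 (0.35), its other members. Each of these genes is part of the score, which by itself raises its r. Among tested genes other than the members, the 6 whose residuals were most like the score's were Actb (r = 0.848), Dnajc7 (0.836), Pacc1 (0.824), Gpat4 (0.807), Tpt1 (0.804) and Sfxn5 (0.802). None of these 6 is in the nephric lists used here.

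Other nephric genes were read on the same arrays from lists of duct, tubule and nephrogenic genes. Of 14 measured duct genes other than the members, 5 were above the filter and 0 of these passed at either stage. Log2 changes were above 0 for 5 of the 5 at E14.5 (median 0.44) and for 4 at E16.5 (median 0.33). The medians over all genes tested were 0.03 and 0.05. Tfcp2l1, a transcription factor of collecting duct, had the smallest p at E16.5, with a log2 change of 0.62 ± 0.22 (limma adjusted p = 0.159). Calb1, a calcium-binding protein of the duct that other cells also make, did not pass at E14.5 (0.90 ± 0.40, limma adjusted p = 0.538), and its E16.5 value had the other sign (-0.52 ± 0.35, limma adjusted p = 0.447). Several genes of the list were dim: Wnt9b, the duct signal that induces tubules, had group means of 11.4 to 34.3, and Foxi1 of 2.67 to 10.4. Summed over the 14 duct genes, the signal was 1940 to 2993 in E16.5 controls and 1810 to 2943 in E16.5 knockouts, and 3123 to 4423 against 3993 to 7124 at E14.5, with overlap at both stages. Calb1 was the largest part of these sums, with means in controls and knockouts of 1541 and 3060 at E14.5 and 1586 and 1147 at E16.5. The mean log2 level of the 14 genes, in which each gene counts alike, overlapped at both stages as well. Ret, the Gdnf receptor of the duct, was below the filter (a mean signal of 57.6) and is named here after its values were seen. Its E16.5 controls read 74.9, 81.8, 93.0 and 95.7 and its knockouts 19.4, 10.0, 2.81 and 31.0, all below the controls, which is the opposite order to Pax8 and Cdh16. In the fit of all 18193 genes without a filter, where 0.737% passed at E16.5, Ret fell by 1.76 on the log2 scale (SE 0.33, limma adjusted p = 0.0184), the 1 call among the 14 duct genes. This call was lost without E16.5 control replicate 3 (-1.73, limma adjusted p = 0.062), control replicate 4 (-1.72, limma adjusted p = 0.0565) or knockout replicate 1 (-1.84, limma adjusted p = 0.0505). At E14.5 the log2 change of the Ret probe set was -0.71 ± 0.38 (limma adjusted p = 0.669 over all probe sets).

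Of 11 measured nephron and mesonephric tubule genes, 5 were tested and 1 passed, Aqp1, a water channel of proximal tubule that vessels and mesothelium also make. Aqp1 rose at E16.5 by 1.31 ± 0.31 (limma adjusted p = 0.0436), from 262, 201, 131 and 444 in controls to 813, 494, 665 and 526 in knockouts, without overlap. This call was near the threshold and was lost in 14 of 24 alternative fits (limma adjusted p up to 0.335), among them those without E16.5 control replicate 1, 2 or 3 and those without knockout replicate 1, 3 or 4, while the log2 change stayed between 1.05 and 1.60. At E14.5 it was 1.07 ± 0.35 (limma adjusted p = 0.405), and knockout replicate 2 was the highest array (1017). The other 4 tested genes of this list, among them Lrp2 (0.49 ± 0.26, limma adjusted p = 0.343), did not pass at E16.5. Of the 5 tested genes, 3 had a log2 change above 0 at E14.5 (median 0.13) and 4 at E16.5 (median 0.39). Lrp2 was above the filter through its knockouts. Its mean signals were 52.5 and 55.4 in controls and 73.3 and 81.6 in knockouts at E14.5 and E16.5. Among the dim genes of this list, group means were 10.5 to 42.4 for Hnf4a, 10.3 to 27.9 for Slc12a1 and 8.33 to 16.3 for Umod. The summed signal of the 11 genes was 2723 to 2890 in E16.5 controls and 3210 to 3907 in knockouts, without overlap, and overlapped at E14.5. Most of that sum was Synpo, an actin-associated protein of podocytes, with E16.5 means of 1660 ± 222 (SD, n = 4) and 2021 ± 231 (SD, n = 4) and a log2 change that did not pass (0.28 ± 0.14, limma adjusted p = 0.3), and Synpo and Aqp1 made up most of the difference. The list's mean log2 level, in which each gene counts alike, overlapped at E16.5 (6.27 to 6.60 in controls, 6.58 to 6.83 in knockouts).

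Of 12 measured genes of nephrogenic and mesonephric mesenchyme, 4 were tested and 0 passed at either stage. Of these 4, 3 had a log2 change above 0 at E14.5 (median 0.77) and 4 at E16.5 (median 0.44). Itga8, an integrin of that mesenchyme, had the smallest p at E16.5 (0.74 ± 0.18, limma adjusted p = 0.0509). By its most variable probe set in place of the brightest the value was -0.17 (limma adjusted p = 0.803), while it passed in 5 of 24 alternative fits, those with quantile normalization, array weights or a threshold of 0.10 and those without E16.5 control replicate 2 (0.87, limma adjusted p = 0.0442) or knockout replicate 2 (0.81, limma adjusted p = 0.0337). Osr1, an early factor of intermediate mesoderm, had a log2 change of 1.22 ± 0.26 at E14.5 (limma adjusted p = 0.171), with 170.0, 183 and 120 in controls and 281, 599 and 330.2 in knockouts. Meox1 had the highest E14.5 estimate of the list, 1.67 ± 0.44 (limma adjusted p = 0.273). The list summed to 1300 to 1954.4 in E16.5 controls and 1954.2 to 2731 in knockouts, which met at their ends, and 2062 to 2803 against 2977 to 3757 at E14.5, which did not overlap. Itga8, by its brightest probe set, made up most of the E14.5 sums, with means of 1899 in controls and 2403 in knockouts. At E16.5 its means were 678 and 1125. The list's mean log2 level did not overlap at E14.5 (6.04 to 6.28 in controls, 6.29 to 6.59 in knockouts). At E16.5 that level overlapped (6.26 to 6.67 in controls, 6.53 to 7.01 in knockouts). Of 7 measured Müllerian duct genes, 5 were tested and 0 passed. Of these 5, 2 had a log2 change above 0 at E14.5 (median -0.08) and 1 at E16.5 (median -0.365). Dach1 had a log2 change of -0.60 ± 0.20 at E16.5 (limma adjusted p = 0.13). The duct ligand Wnt7a, below the filter, had means in controls and knockouts of 102 and 103 at E14.5 and 7.70 and 9.33 at E16.5. The Müllerian list summed to 9963 to 12234 in E16.5 controls and 6833 to 9848 in knockouts, without overlap, and most of that sum was Amhr2, a receptor that granulosa cells also make. Its mean log2 level did not overlap at E16.5 either (7.64 to 7.82 in controls, 7.44 to 7.51 in knockouts), but overlapped at E14.5.

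Epithelial genes beyond the members gave a mixed picture. Of 27 measured epithelial adhesion and identity genes, 16 were tested and 1 passed at E16.5, Krt19, a keratin of simple epithelia and of the ovarian surface. Krt19 rose by 1.24 ± 0.25 (limma adjusted p = 0.0173), from 1370, 1094, 684 and 975.1 in controls to 2610, 2241, 2286 and 2391 in knockouts, without overlap. The call was lost without E16.5 control replicate 3 (1.06, limma adjusted p = 0.0647), without E16.5 knockout replicate 1 (1.19, limma adjusted p = 0.0643), and without both arrays with high bioB signals (1.17, limma adjusted p = 0.228). It was also lost with the Gapdh difference as a covariate (1.44, limma adjusted p = 0.0967) and with the bioB signal as one (1.18, limma adjusted p = 0.224). At E14.5 its log2 change was 1.44 ± 0.28 (limma adjusted p = 0.102), with all knockouts (1284 to 2039) above all controls (415 to 1097). It passed there without E14.5 control replicate 1 (1.86, limma adjusted p = 0.00272) or E14.5 knockout replicate 3 (1.64, limma adjusted p = 0.0158), and it passed in 4 of 21 alternative fits in all, among them that with array weights (1.65, limma adjusted p = 0.0382). The list's median log2 change at E16.5 was 0.04, with 9 of 16 above 0. Members of the tight junction and splicing groups, such as Ocln (-0.12) and Esrp1 (-0.10), did not pass. The summed signal of the list was 13278 to 13904 in E16.5 controls and 15245 to 16013 in knockouts, without overlap. At E14.5 it was 9240 to 9374 in controls and 11336 to 13667 in knockouts, also without overlap. Bright genes weigh most in this sum. At E16.5 the mean signal of Krt19 rose most (1031 to 2382), while Esrp2 (2238 to 1969) and Krt8 (2159 to 1936) were among those lower in knockouts. The mean log2 level of all 27 measured genes, dim ones included, counts each gene alike, and it did not overlap at either stage. At E14.5 that level was 7.0042 to 7.0512 in controls and 7.0761 to 7.2995 in knockouts. At E16.5 it was 7.2726 to 7.4873 in controls and 7.5378 to 7.6978 in knockouts.

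Of 10 measured surface epithelium genes, all 10 were tested, 2 passed at E16.5 and 0 at E14.5. Beside Krt19, the uroplakin Upk1b rose by 1.01 ± 0.24 (limma adjusted p = 0.0438), from 140, 253, 117 and 231 in E16.5 controls to 561, 324, 385 and 272 in knockouts, without overlap. This call was lost in 12 of 24 alternative fits (limma adjusted p up to 0.553), among them those without E16.5 control replicates 1 and 3 and knockout replicates 1 and 3, each left out singly. The mesothelial genes Upk3b (0.47 ± 0.15, limma adjusted p = 0.117) and Msln (2.09 ± 0.66, limma adjusted p = 0.119) did not pass. Msln was above the filter through its knockouts, so its place among the tested genes depends on the change described. Its mean signals were 46.8 and 28.2 in controls and 252 and 253 in knockouts at E14.5 and E16.5. Msln was high in single arrays, with 707 in E16.5 knockout replicate 1 and 606 in E14.5 knockout replicate 2. At E16.5 7 of the 10 genes had a log2 change above 0. Mean signals were lower in E16.5 knockouts for Lhx9 (2580 to 2197), Krt8 (2159 to 1936) and Krt18 (2064 to 2014). All 10 genes summed to 15639 to 17250 in E16.5 controls and 17848 to 22185 in knockouts, without overlap. Upk3b (3513 to 4945) and Krt19 (1031 to 2382) had the largest rises in mean signal. At E14.5 the sums overlapped (19499 to 20807 in controls and 19935 to 24240 in knockouts). The mean log2 level of the 10 genes did not overlap at E14.5 (10.10 to 10.24 in controls, 10.45 to 10.89 in knockouts). Nor did it at E16.5 (9.71 to 10.07 in controls, 10.25 to 10.81 in knockouts). The part of this list in the E16.5 values of Pax8, Cdh16 and Cdh1 was not tested.

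**Figure D4:**
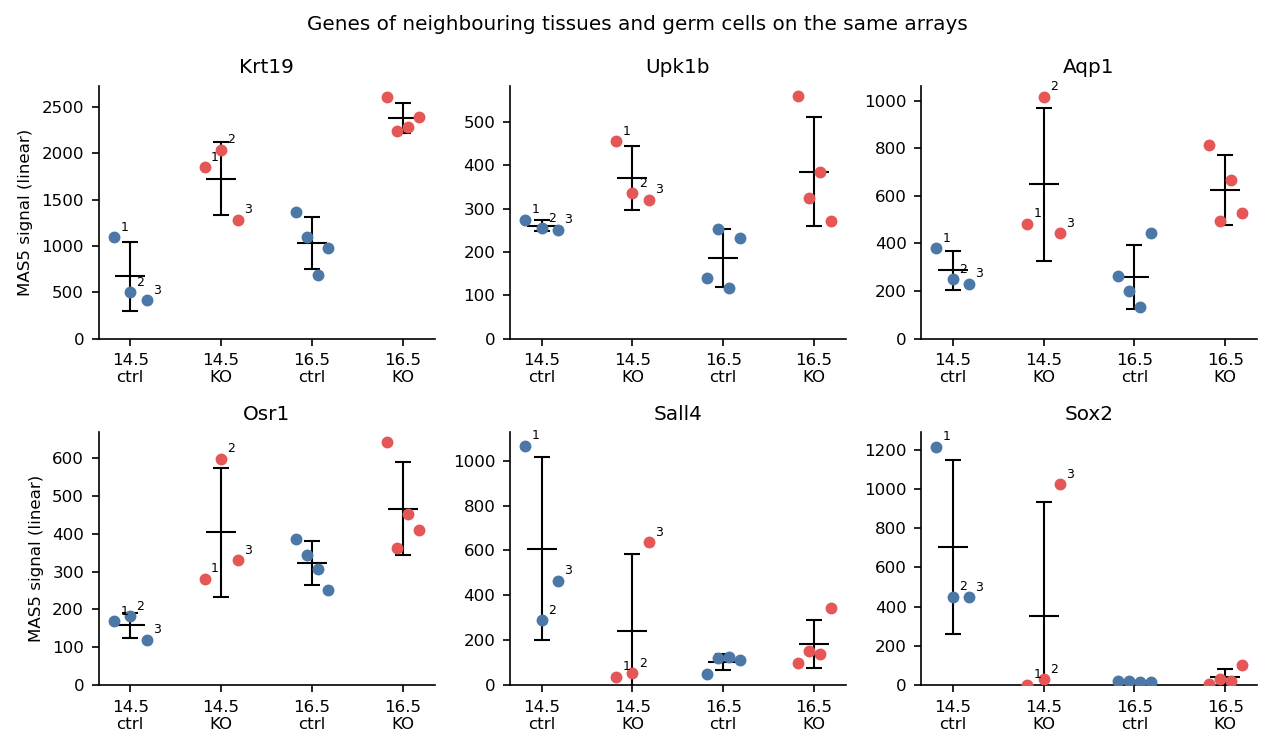
MAS5 signal (linear axis from 0) of 6 genes outside the members, by group, with means and 1 SD (cut off at 0), and with the replicate number beside each E14.5 point. At E16.5 Krt19, Upk1b and Aqp1 have all 4 knockout points above the controls and passed the test. Among E14.5 knockouts, replicate 3 is high in Sall4 and Sox2 (1023) while replicates 1 and 2 are near the floor.

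Germ cells, which also make Cdh1 and Epcam, were read with 14 measured genes, of which 13 were tested. None passed between knockout and control at either stage by limma. At E14.5 1 of the 13 had a log2 change above 0 (median -0.75), and at E16.5 12 of 13 did (median 0.39), beside medians over all genes of 0.03 and 0.05. The E14.5 knockout arrays differed among themselves in these genes. Sox2, a pluripotency factor, read 1216, 451 and 446 in controls and 2.54, 28.4 and 1023 in knockouts. Sall4 read 1068, 289 and 465 in controls and 37.1, 51.8 and 638 in knockouts. Knockout replicate 3, with the low Cdh16 and the high Lhx1 signal, was the array high in both. The 14 germ cell genes summed to 59874 to 71954 in E14.5 controls and 45820 to 67269 in knockouts, with overlap, and its part in the E14.5 values of the members was not tested.

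The remaining lists gave no call between knockout and control. Among 8 adhesion partners of Cdh1, all tested, the catenins Ctnnb1 (-0.04 ± 0.08) and Ctnna1 (-0.02 ± 0.09) had E16.5 estimates near 0, and Jup, the junctional plakoglobin, had 0.67 ± 0.24 (limma adjusted p = 0.154). Of 17 measured paralogs of the members, 6 were tested and 0 passed, among them Gata2 with 0.67 ± 0.33 at E16.5 (limma adjusted p = 0.293). Other sources of Gata3 were also read: of 9 measured sympathetic and chromaffin genes 3 were tested and 0 passed, and of 6 measured lymphoid genes 1 was tested and 0 passed. All 10 pre-granulosa genes were tested and 0 passed, with Foxl2, the factor of granulosa identity, at -0.83 ± 0.20 at E16.5 (limma adjusted p = 0.0504). Foxl2 passed in 8 of 24 alternative fits, among them those with a pseudocount of 64, quantile normalization, median centring, arrays of 1 stage alone (limma adjusted p = 0.00557), array weights (limma adjusted p = 0.0236) or a threshold of 0.10 and that without E16.5 knockout replicate 2 (-0.91, limma adjusted p = 0.0299). By its most variable probe set the value was -0.24 (limma adjusted p = 0.75). The summed signal of the pre-granulosa list was 25649 to 26792 in E16.5 controls and 21103 to 23386 in knockouts, without overlap, and the deposited scaling to a common mean makes signals of an array relative to each other. The mean log2 level of that list ran from 10.721 to 10.856 in E16.5 controls and from 10.579 to 10.719 in knockouts, nearly meeting.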

How the data were processed

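Ovary RNA of 14 samples was isolated with PicoPure, and 100 ng was amplified with the 3' IVT Express kit (16 hours), per the labels' protocols. The authors deposited intensities on a linear scale, and the submitters' processing notes name MAS5 and Affymetrix Expression Console with no version. Each array's mean, trimmed by 2% at each end, was 500. The number of arrays limits the precision, and p-values weigh differences between groups against the spread within groups, estimated over all 14 arrays.

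Values were taken as log2(signal + 16), which understates changes of dim genes. Gene symbols came from the platform annotation, in which 34945 probe sets had a single symbol, 932 had several and 9160 had none listed. limma 3.58.1 (eBayes with trend, two-sided) in R 4.3.3 with the data.table package (version 1.17.8) fitted 4 groups. It was tested on simulated data. Figures used matplotlib 3.10.9 and pandas 2.3.3 in Python 3.11.15. The members and the 12 other lists were chosen with earlier results of these data known. Named genes are the members, Nr2f2, the 6 genes most like the duct score and, per list and comparison, up to 4 genes past the threshold or 2 of smallest p, of which the text gives a part. Other genes are examples or background, chosen after their values were seen. Alternatives changed the pseudocount, scaling, filter, probe set, spread model, weights, threshold and samples. Added after seeing the data were leaving out E16.5 knockout replicates 1 and 4, Gapdh and bioB covariates, Lhx1 in the score, and Ret without a filter.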

Additional observations from a re-analysis of the deposited data

Results flagged for a closer look

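The dimmer Epcam probe set had 1 E16.5 control array far below the other controls of its group. Control replicate 4 read 42.96, while the others read 77.1 to 82.7. Of 20 groups of 4 arrays tested in this way for the members' probe sets, 1 was flagged, and chance flags about 1 in 20.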

How the results depend on the processing

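Each member's log2 change was recomputed under 639 combinations of comparison and alternative, of which 583 kept direction and side of the threshold, 11 lost a call, 6 gained one and 39 changed sign. Between knockout and control no call of a member existed to lose. Pax8, Cdh1 and Cdh16 were positive at both stages under every alternative run, Emx2 was negative at both, and Epcam and Gata3 changed sign. The cause of these shifts was not tested.

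At E14.5, all genes past the threshold between knockout and control numbered 0 with a pseudocount of 64, quantile normalization, median centring, the 60th percentile filter, eBayes without trend, arrays of one stage alone, the Gapdh covariate or the bioB covariate. They numbered 9 with no filter, 8 with the most variable probe set, 11 with array weights and 8 with the replicate block. At E16.5 there were 278 after quantile normalization, 106 with the most variable probe set, 466 at an adjusted p of 0.10, 16 without both knockout arrays with high bioB signals, 18 with the Gapdh covariate and 17 with the bioB covariate. For the difference between stages, 1 gene passed with no filter. Of the members, 1 (Pax8) passed at E16.5 at an adjusted p of 0.10.

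For E16.5 against E14.5 in controls, 0 members passed after quantile normalization and 2 after median centring, with the most variable probe set or with the mean of all probe sets. In knockouts, 1 member passed after quantile normalization, median centring, the 60th percentile filter, the mean of all probe sets, array weights or the replicate block. Of 7 pairs of arrays with the same replicate number, 3 deviated together (r above 0.1; the range was -0.05 to 0.43), and not every array was most like the array of its own number, so the numbers were not taken to pair the samples, and the block changed no other member's call. Of the other genes named, the block gave a call to Krt19 at E14.5 (1.44, limma adjusted p = 0.0145) and to Foxl2 at E16.5 (-0.83, limma adjusted p = 0.0405).

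Signs changed as follows, for values that had not passed. In controls between stages, quantile normalization gave -0.025 for Cdh1, -0.11 for Cdh16 and -0.12 for Pax8, median centring gave -0.046, -0.27 and -0.12, and the mean of all probe sets gave -0.053 for Pax8. In knockouts between stages, median centring gave -0.0048 for Cdh1 and -0.072 for Epcam, and the most variable probe set gave -0.21 for Epcam. Gata3 at E16.5 was 0.035 with array weights, 0.21 without both high-bioB arrays, 0.15 with the Gapdh covariate and 0.13 with the bioB covariate. Cdh1 in the difference between stages was -0.12 with array weights. Itga8, no member, was -0.086 at E14.5 and -0.17 at E16.5 with its most variable probe set.

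With each array left out in turn, all genes past the threshold ranged from 0 to 179 at E14.5, 43 (without knockout replicate 1) to 494 (without knockout replicate 2) at E16.5 and 0 to 30 for the difference between stages. Members past it ranged from 0 to 1 at E14.5, 0 to 2 between stages in controls and 1 to 2 in knockouts. The highest E14.5 values came without knockout replicate 3. The members' log2 changes ranged from -0.37 to 0.059 (Epcam) and -0.15 to 0.0031 (Gata3) at E14.5, and from -0.21 to 0.056 for Gata3 at E16.5. Between stages they ranged from -0.28 to 0.26 (Cdh16) and -0.29 to 0.14 (Epcam) in controls and from -0.81 to 0.19 (Cdh16) in knockouts. For the difference between stages they ranged from -0.35 to 0.29 (Cdh1), -0.88 to 0.12 (Cdh16), -0.31 to 0.054 (Emx2) and -0.14 to 0.13 (Gata3). Signals near the filter, as for Cdh16 and Lhx1, limit what these arrays can show.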
